A study of Mus musculus with 18 samples.

Results

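Airway secretory cell genes were followed through 18 microarrays of alveolar type II cells, the lung epithelial cells that make surfactant. They comprise 8 of the 19938 genes with a value. The rule listed them by name as products of the secretory cells of the conducting airway: the secretoglobins Scgb1a1, Scgb3a1 and Scgb3a2, the defence proteins Bpifa1 and Reg3g, the mucins Muc5b and Muc1, and Chad, which encodes the matrix protein chondroadherin. Each of the 8 was read by 1 feature of the array, and the rule uses their names, not their measured values.

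The cells came from mice 7 to 8 weeks old of 2 genotypes. Control mice were littermates that carried the floxed gene, labelled CEBP/a(flx/flx), and were without either the rtTA or the Cre genes. Deleted mice were labelled CCSP/rtTA/CEBPa(flx/flx), and in them Cebpa, the gene of the transcription factor C/EBPα, was deleted conditionally, starting in early gestation for Clara cells and near term for type II cells. Clara cells, now called club cells, are the main airway secretory cells, so the airway cells of the deleted mice carry the deletion as well. CCSP, the driver of rtTA in the label, is the product of Scgb1a1. Each genotype was sampled after 0, 2 and 24 h of hyperoxia with 3 arrays a group. The hyperoxia rests on the series design, because every sample description states air. The labels do not say whether the arrays of a group came from different animals, so the p-values below rest on the spread between these samples alone. That spread is pooled over all groups, and limma draws it for each gene toward that of the other genes. With 3 arrays a group the precision is limited.

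Airway secretory cells line the bronchi and bronchioles and release proteins onto the airway surface. Club cells are known for secretoglobins and for enzymes that oxidize inhaled compounds, while goblet and mucous cells are known for gel-forming mucins. Bpifa1 and Reg3g encode secreted antimicrobial proteins of mucosal surfaces. Muc1 differs from the others in that it is a membrane-anchored mucin which type II cells themselves express. Type II cell suspensions are prepared by digesting the whole lung and can hold airway cells. In total RNA of a cell suspension, fewer cells of a type and less RNA per cell cannot be told apart.

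The stretch just before the start of transcription is shown for the members with a promoter in the RefSeq table of build GRCm38.p6, because these genes differed widely in how they varied and Cebpa is the deleted factor. The table held 5 of the 8. The last 60 bases before the start are given on the gene's strand, with TATAAA in capitals. The windows are Scgb3a1 at chr11:49663535-49663594 (+), Chad at chr11:94564987-94565046 (+), Bpifa1 at chr2:154142820-154142879 (+), Reg3g at chr6:78468875-78468934 (-) and Muc1 at chr3:89228996-89229055 (+).
Scgb3a1: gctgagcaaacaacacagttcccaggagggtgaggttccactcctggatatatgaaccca
Chad: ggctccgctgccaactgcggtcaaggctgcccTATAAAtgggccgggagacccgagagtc
Bpifa1: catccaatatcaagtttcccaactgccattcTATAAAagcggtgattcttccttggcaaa
Reg3g: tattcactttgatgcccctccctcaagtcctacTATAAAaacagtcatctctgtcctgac
Muc1: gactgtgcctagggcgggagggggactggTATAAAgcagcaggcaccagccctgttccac
TATAAA was present on the gene's strand in 4 of these 5 windows, and began 28 bases before the start in Chad, 29 in Bpifa1, 27 in Reg3g and 31 in Muc1. It was present in 2.87% of the 32851 promoters of the table in the same window. It was looked for after these sequences had been read, so the count describes them and was not tested. The C/EBP motif TTGCNNAA, searched on both strands over the 250 bases before the start, was present in 0 of the 5 and in 9.56% of all promoters.

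All levels are RMA values on the log2 scale, where a difference of 1 is a doubling. They are compared for 1 gene between arrays, never between genes. Where groups of 3 arrays are said to overlap or stand apart, this describes them only. The share of all genes whose groups stood apart was not counted. The interquartile range of the values over all genes was 3.01 and 2.97 in the control and deleted groups at 0 h, 2.25 and 2.35 at 2 h, and 2.47 and 1.95 at 24 h. Comparisons across times, and the genotypes at 24 h, therefore set arrays of unequal range side by side. The part of this in each result was not tested beyond the settings named beside it. The range had an SD of only 0.03 to 0.20 within groups, so it was nearly fixed by group. A fit with the range as a covariate can therefore hardly separate range from group. A call lost or a sign turned in that fit does not tell them apart. Cebpa itself was at 10.95 to 11.04 in controls and 10.43 to 10.66 in deleted cells at 0 h, where its difference of -0.43 was not called (adjusted p = 0.429). It was lower in deleted cells at 2 h, with a difference of -1.10 (adjusted p = 0.00461), and at 24 h, with -1.83 (adjusted p = 8.19e-06). Here and below a gene was called where the limma p was under 0.05 after Benjamini-Hochberg adjustment across the 19938 genes.

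The secretoglobins are small secreted proteins. Scgb1a1 (Entrez 22287), the defining product of club cells, was the steadiest of the 8. Its control arrays read 14.03, 13.98 and 14.09 at 0 h, 13.62, 13.63 and 13.58 at 2 h, and 13.56, 13.59 and 13.61 at 24 h. Its deleted arrays read 14.03, 14.00 and 14.00 at 0 h, 13.60, 13.64 and 13.60 at 2 h, and 13.67, 13.68 and 13.62 at 24 h. The genotypes overlapped at 0 and 2 h, and at 24 h the deleted arrays lay just above the controls. In both genotypes every later array lay below every array at 0 h. The value lay 0.48 to 0.61 below the highest gene of its array at 0 h, 0.16 to 0.27 at 2 h and 0.08 to 0.27 at 24 h, and whether the top of the scale limits its changes was not tested.

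Scgb3a2 (Entrez 117158), a secretoglobin of airway epithelium, read 9.98, 10.33 and 10.51 in controls at 0 h, 10.57, 10.30 and 10.21 at 2 h, and 10.09, 9.40 and 9.79 at 24 h. In deleted cells it read 10.13, 10.30 and 10.22 at 0 h, 9.99, 10.71 and 10.49 at 2 h, and 10.37, 10.38 and 10.20 at 24 h. The genotypes overlapped at 0 and 2 h and stood apart at 24 h, where the controls were low. Scgb3a1 (Entrez 68662), a secretoglobin of larger airways and submucosal glands, was more scattered. Its control arrays read 8.50, 9.62 and 8.98 at 0 h, 9.67, 8.37 and 9.37 at 2 h, and 9.60, 8.06 and 8.61 at 24 h. Its deleted arrays read 9.04, 9.26 and 8.61 at 0 h, 9.37, 10.31 and 10.19 at 2 h, and 9.32, 8.71 and 9.95 at 24 h. The genotypes overlapped at every time, and the highest readings were those of deleted replicates 3 and 4 at 2 h.

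Bpifa1 (Entrez 18843) encodes a secreted protein of the airway surface liquid. It read 6.41, 9.22 and 9.29 in controls at 0 h, 9.68, 8.03 and 10.21 at 2 h, and 9.90, 6.49 and 8.71 at 24 h. The deleted arrays read 8.42, 8.99 and 7.77 at 0 h, 10.33, 9.96 and 9.25 at 2 h, and 8.91, 9.22 and 10.13 at 24 h. Within control cells at 24 h alone the lowest and highest arrays were 10.6-fold apart, and the genotypes overlapped at every time. Reg3g (Entrez 19695), a lectin that binds bacterial cell walls, read 6.18, 7.93 and 8.32 in controls at 0 h, 8.65, 6.90 and 8.95 at 2 h, and 8.73, 6.75 and 8.34 at 24 h. On the deleted arrays Reg3g read 7.31, 7.91 and 7.15 at 0 h, 9.32, 10.49 and 9.09 at 2 h, and 8.26, 8.12 and 9.93 at 24 h. The genotypes stood apart at 2 h, with all 3 deleted arrays above the controls, and overlapped at 0 and 24 h.

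Muc5b (Entrez 74180), the gel-forming mucin of healthy airways, read 6.43, 7.59 and 6.85 in controls at 0 h, 7.91, 7.60 and 7.38 at 2 h, and 8.83, 7.36 and 7.96 at 24 h. Values of deleted cells were 7.31, 7.47 and 6.74 at 0 h, 7.68, 8.58 and 8.08 at 2 h, and 8.69, 7.98 and 9.53 at 24 h. The genotypes overlapped at every time. Muc1 (Entrez 17829), the membrane-anchored mucin, read 12.57, 12.59 and 12.54 in controls at 0 h, 11.70, 11.88 and 11.92 at 2 h, and 11.65, 11.52 and 11.46 at 24 h. Deleted arrays of Muc1 read 12.53, 12.49 and 12.47 at 0 h, 12.10, 12.01 and 11.48 at 2 h, and 11.15, 11.07 and 11.42 at 24 h. Every Muc1 array at 2 or 24 h lay below every array at 0 h, and the genotypes stood apart at 0 h, by little, and at 24 h.

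Chad (Entrez 12643), which encodes a leucine-rich repeat protein first known from cartilage, read 7.85, 8.29 and 8.27 in controls at 0 h, 9.05, 8.68 and 8.66 at 2 h, and 8.20, 7.61 and 7.70 at 24 h. In deleted cells it read 7.70, 7.73 and 7.96 at 0 h, 8.57, 9.31 and 9.08 at 2 h, and 8.19, 8.01 and 8.21 at 24 h. In both genotypes all 3 arrays at 2 h lay above all arrays at 0 h and at 24 h.

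**Figure D1:**
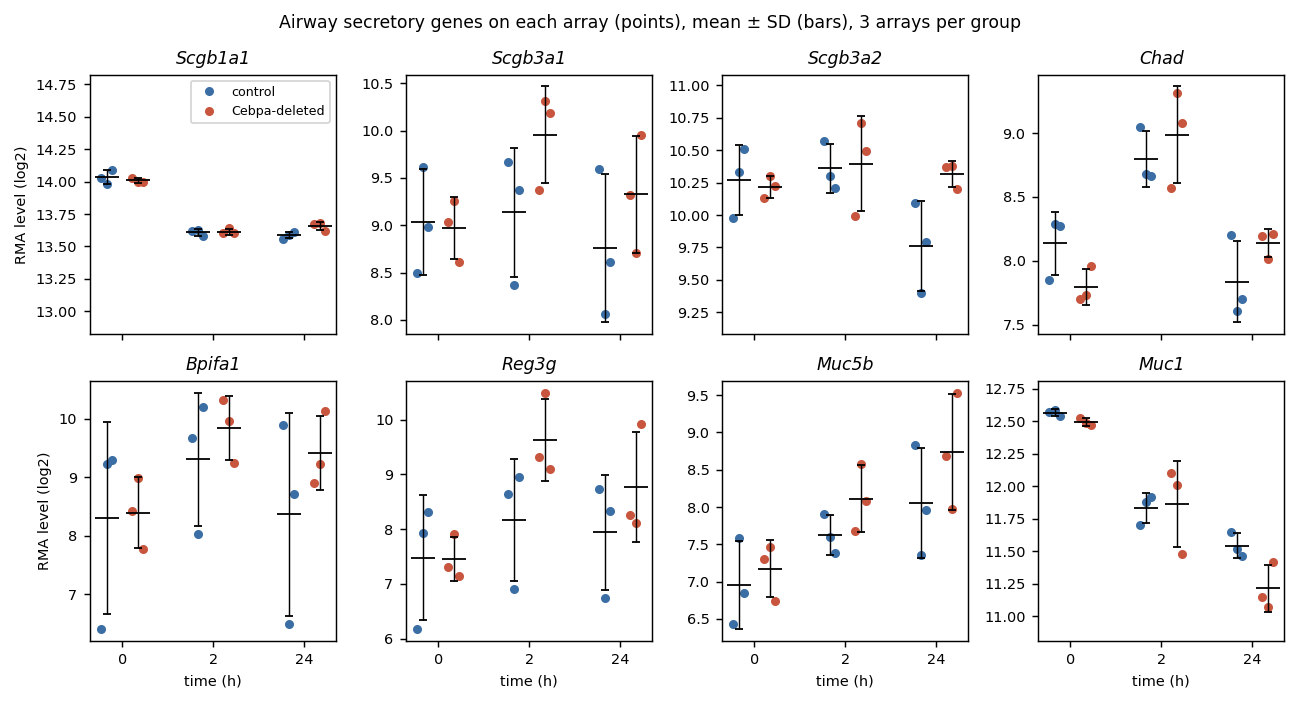
RMA level (log2) of each of the 8 genes on each array against time in hours, with control arrays in blue, deleted arrays in red and bars for the mean ± SD of 3 arrays. Panels have scales of their own: Scgb1a1 spans 13.56 to 14.09 while Bpifa1 spans 6.41 to 10.33, and Chad is highest at 2 h in both genotypes.

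The comparison of genotypes asks whether these genes differed between deleted and control mice. Controls were without either the rtTA or the Cre genes, so these genes and the loss of Cebpa cannot be told apart. Cebpa itself was not called at 0 h, where it was at 74.3% of its control level. At 0 h 0 of the 8 was called, against 0.858% of all genes. An unadjusted limma p below 0.05 was found for 0 of 8 and for 1845 of all 19938 genes. The largest difference was in Chad, at -0.34 (SE 0.18, 95% interval -0.72 to 0.04, adjusted p = 0.613). Scgb1a1 differed by -0.03 (95% interval -0.18 to 0.12) and Scgb3a2 by -0.06 (95% interval -0.44 to 0.32), so for these 2 genes changes beyond those bounds were outside the interval. For Bpifa1 the interval ran from -1.53 to 1.70, and changes within that range could not be told from none.

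At 2 h again 0 of 8 was called, against 1.4% of all genes. An unadjusted limma p below 0.05 was found for 1 of 8, Reg3g, and for 2197 of all 19938 genes. Reg3g was 1.47 higher in deleted cells (SE 0.63, 95% interval 0.15 to 2.79), a 2.76-fold difference which did not pass (adjusted p = 0.375). Its groups did not overlap, which is a description and no test. Scgb3a1 differed by 0.82 (SE 0.40, adjusted p = 0.472). The median difference over the 8 genes was 0.34 and over all genes -0.02.

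At 24 h 2 of the 8 were called, where 50.7% of all genes were. Scgb3a2 was higher in deleted cells, 10.32 ± 0.10 against 9.76 ± 0.35 (SD, n = 3), a difference of 0.56 (SE 0.18, adjusted p = 0.0166) or 1.47-fold. Muc1 was lower, 11.21 ± 0.19 against 11.54 ± 0.10 (SD, n = 3), a difference of -0.33 (SE 0.13, adjusted p = 0.0429). Of all genes 24.3% were called higher and 26.4% lower, so 1 of 8 in each direction is no more than the background share. Of the genes called, 48.0% were higher, or 37.3% with each array centred on its median.

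Both calls were lost in some settings. That of Scgb3a2 was lost without control replicate 2 (0.38, adjusted p = 0.101), deleted replicate 1 (0.53, adjusted p = 0.0526) or deleted replicate 2 (0.53, adjusted p = 0.0599) at 24 h, and with each array's interquartile range as a covariate (0.20, adjusted p = 0.942). That of Muc1 was lost without any 1 of 8 arrays: control replicates 1 and 2 at 0 h, control replicate 2 at 2 h, all 3 controls at 24 h, and deleted replicates 1 and 2 at 24 h. The largest moves were without control replicate 1 (-0.28, adjusted p = 0.142) and deleted replicate 2 (-0.26, adjusted p = 0.17) at 24 h. It shrank to -0.01 after a second quantile normalization (adjusted p = 0.957) and turned to 0.28 with the range covariate (adjusted p = 0.712).

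The other 6 were not called at 24 h. Their differences were 1.05 for Bpifa1 (SE 0.77, adjusted p = 0.253), 0.83 for Reg3g (adjusted p = 0.27), 0.68 for Muc5b (SE 0.38, adjusted p = 0.137), 0.57 for Scgb3a1 (adjusted p = 0.235), 0.30 for Chad (adjusted p = 0.167) and 0.07 for Scgb1a1 (adjusted p = 0.414). Without control replicate 1 at 24 h Muc5b (1.07, adjusted p = 0.0372) and Chad (0.48, adjusted p = 0.0484) were called, as was Muc5b without deleted replicate 2 (1.06, adjusted p = 0.0482). After quantile normalization Muc5b (0.97, adjusted p = 0.0495), Chad (0.57, adjusted p = 0.0319) and Scgb1a1 (0.19, adjusted p = 0.032) joined Scgb3a2 among the genes called higher. The median over the 8 was 0.56 and over all genes 0.05. Averaged over the times 0 of 8 was called, against 16.9% of all genes. An unadjusted limma p below 0.05 was found for 1 of 8, Muc5b, and for 6653 of all 19938 genes.

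**Figure D2:**
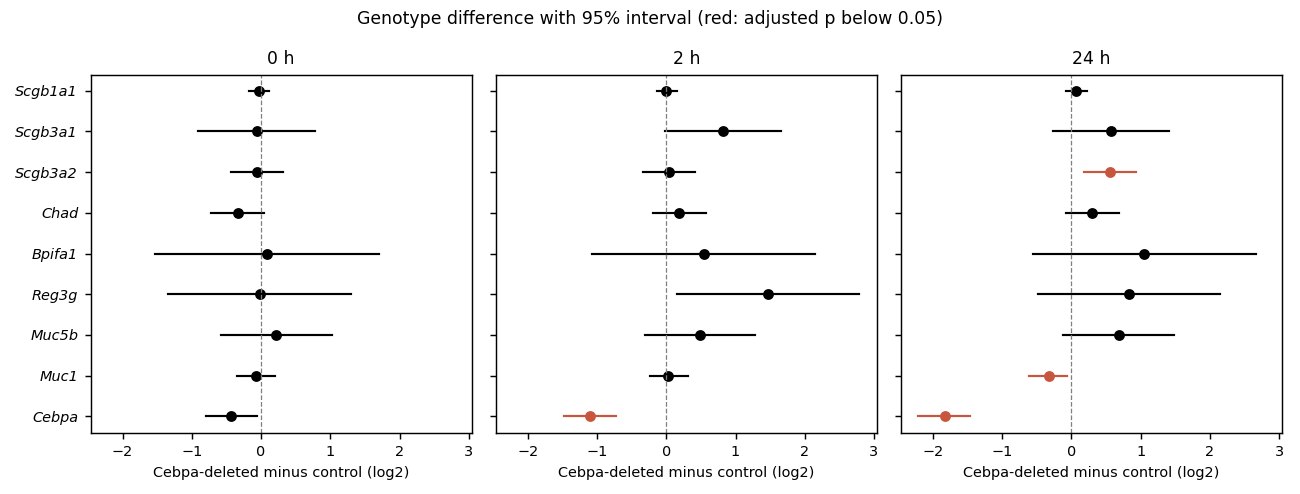
Difference between genotypes (deleted minus control, log2) at 0, 2 and 24 h for the 8 genes and Cebpa, as points with unadjusted 95% intervals from limma, red where the adjusted p was below 0.05. Scgb3a2 (0.56) and Muc1 (-0.33) are red at 24 h, and the intervals of Bpifa1 and Reg3g are the widest.

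The comparison of times asks which of these genes differed between 0, 2 and 24 h. By the series design no group was kept out of hyperoxia to 2 or 24 h, so hyperoxia and time cannot be told apart. The lowest gene of an array read 2.18 to 2.30 at 0 h and 2.74 to 2.89 later, without overlap. Whether the 0 h arrays were normalized apart from the later ones is not stated. Changes from 0 h cannot be told apart from such a difference. Chad was raised at 2 h and back down at 24 h. In controls it rose by 0.66 from 0 to 2 h (SE 0.18, adjusted p = 0.00358) or 1.58-fold and then fell by 0.96 to 24 h (SE 0.18, adjusted p = 0.00182). In deleted cells it rose by 1.19 (SE 0.18, adjusted p = 3.2e-05) or 2.29-fold and then fell by 0.85 (SE 0.18, adjusted p = 0.00272). At 24 h it did not differ from 0 h by the test in either genotype (-0.30, adjusted p = 0.159, and 0.34, adjusted p = 0.0926), although it was called lower in controls without replicate 1 at 24 h (-0.48, adjusted p = 0.0352) and higher in deleted cells after quantile normalization (0.85, adjusted p = 0.00117) and with only the groups compared (adjusted p = 0.0176). The fall in controls was called in all 27 other settings. The rises lost their call with the range covariate (0.28, adjusted p = 0.729, in controls and 0.88, adjusted p = 0.151, in deleted cells), as did the fall in deleted cells (-1.06, adjusted p = 0.0906).

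Scgb1a1 and Muc1 fell from 0 h. Scgb1a1 fell by 0.43 at 2 h and 0.45 at 24 h in controls (adjusted p = 5.03e-05 and 4.32e-05) and by 0.40 and 0.35 in deleted cells (adjusted p = 0.000143 and 0.000193). The highest gene of each array moved likewise, from 14.53 to 14.62 at 0 h to 13.76 to 13.86 at 2 h and 13.70 to 13.88 at 24 h. After a second quantile normalization the direction of Scgb1a1 turned, to 0.23 at 2 h and 0.25 at 24 h in controls (adjusted p = 0.0103 and 0.00553) and 0.22 and 0.39 in deleted cells (adjusted p = 0.0141 and 8.6e-05).

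Muc1 fell by 0.74 at 2 h and 1.02 at 24 h in controls (adjusted p = 9.81e-05 and 6.27e-06), to 49.3% of its level at 0 h. In deleted cells it fell by 0.63 and 1.28 (adjusted p = 0.000529 and 1.29e-07), to 41.2%, and between 2 and 24 h by 0.65 (adjusted p = 0.00191). With the range covariate the change at 2 h was 0.15 in controls and 0.09 in deleted cells, the fall at 24 h was not called (-0.40, adjusted p = 0.0847, and -0.09, adjusted p = 0.898), nor was that from 2 to 24 h in deleted cells (-0.18, adjusted p = 0.628).

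Among the mucous and defence genes, Muc5b rose by 24 h in both genotypes, by 1.09 in controls (SE 0.38, adjusted p = 0.0196) and by 1.56 in deleted cells (SE 0.38, adjusted p = 0.00113) or 2.95-fold. In controls the arrays of the 2 times overlapped, and the call was lost without replicate 1 (0.83, adjusted p = 0.0981) or replicate 3 at 0 h (1.04, adjusted p = 0.0528), without replicate 1 at 24 h (0.70, adjusted p = 0.129) and with the range covariate (1.54, adjusted p = 0.149). In deleted cells the arrays stood apart and the covariate alone, of 27 settings, ended the call (2.41, adjusted p = 0.347). Reg3g rose by 2.18 from 0 to 2 h in deleted cells (SE 0.63, adjusted p = 0.00605) or 4.53-fold, the largest change of the 8, and here too the covariate alone ended the call (4.13, adjusted p = 0.0564). In controls Reg3g differed by 0.69 (SE 0.63, adjusted p = 0.332) over the same time. From 0 to 24 h in deleted cells Reg3g differed by 1.31 (SE 0.63, adjusted p = 0.0649), with arrays that stood apart, and this was called in 6 of the 27 other settings. These left out control replicate 1 at 0 h, control replicate 2 at 2 h, control replicate 2 at 24 h or deleted replicate 2 at 24 h, normalized by quantiles again, or fitted only the groups compared, with adjusted p from 0.0081 to 0.0481. In controls Muc5b differed by 0.67 from 0 to 2 h (adjusted p = 0.122), and was called without replicate 2 at 0 h (0.99, adjusted p = 0.0387).

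In deleted cells at 2 h Scgb3a1 rose by 0.99 (SE 0.40, adjusted p = 0.0388) and Muc5b by 0.94 (SE 0.38, adjusted p = 0.0383). Each of these calls was lost without any of 4 single arrays: without deleted replicate 3 at 2 h they were 0.81 (adjusted p = 0.132) and 0.71 (adjusted p = 0.157), and without deleted replicate 3 at 0 h 0.81 (adjusted p = 0.132) and 0.73 (adjusted p = 0.147). The other 2 arrays were deleted replicate 1 at 0 h (1.02, adjusted p = 0.0631, and 1.01, adjusted p = 0.054) and replicate 4 at 2 h (0.87, adjusted p = 0.114, and 0.96, adjusted p = 0.072). With the range covariate the changes were 1.26 (adjusted p = 0.381) and 1.46 (adjusted p = 0.274), and eBayes with trend and robust settings gave adjusted p = 0.0721 and 0.0699. Control cells at 24 h had less Scgb3a2, which fell by 0.52 against 0 h (adjusted p = 0.0192) and by 0.60 against 2 h (adjusted p = 0.0347), and without replicate 2 at 24 h these were -0.34 (adjusted p = 0.13) and -0.42 (adjusted p = 0.163). The fall from 0 h was also lost without control replicate 2 or 3 at 0 h (-0.49, adjusted p = 0.0534, and -0.40, adjusted p = 0.0927), after quantile normalization (-0.08, adjusted p = 0.771) and with the covariate (-0.89, adjusted p = 0.0656). That from 2 h was lost without control replicate 1 or 2 at 2 h (-0.50, adjusted p = 0.151, and -0.63, adjusted p = 0.0696), without replicate 3 at 24 h (-0.62, adjusted p = 0.0796) and with the covariate (-0.45, adjusted p = 0.171). In deleted cells Scgb3a2 differed by 0.10 and -0.08 over the same times. Bpifa1 was called in no comparison of times, its largest difference being 1.45 from 0 to 2 h in deleted cells (SE 0.77, adjusted p = 0.106). With only the groups compared in the fit that difference was called (adjusted p = 0.00467), and so was 1.03 from 0 to 24 h (adjusted p = 0.0106).

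These counts stand against a wide background. In controls 3 of 8 were called from 0 to 2 h and 4 of 8 from 0 to 24 h, where 70.1% and 59.9% of all genes were, and 2 of 8 from 2 to 24 h, where 12.4% were. In deleted cells 6 of 8 were called from 0 to 2 h, 3 of 8 from 0 to 24 h and 2 of 8 from 2 to 24 h, against 63.1%, 77.6% and 31.4%. The comparisons with 0 h share their arrays at 0 h.

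Whether the changes over time depended on the genotype was tested directly. For 2 against 0 h 0 of 8 was called and 0% of all genes, although 1279 genes had an unadjusted limma p below 0.05, none of the 8 among them. For 24 against 0 h 0 of 8 was called, where 14.3% of all genes were, and 2 of 8 had an unadjusted p below 0.05: Chad at 0.64 (SE 0.26, adjusted p = 0.0864) and Scgb3a2 at 0.62 (SE 0.25, adjusted p = 0.0931). The number of all genes below that unadjusted level is not given here, for this comparison or the next. Without deleted replicate 2 at 2 h Chad was called. For 24 against 2 h 0 of 8 was called, where 30.8% of all genes were, and 0 of 8 had an unadjusted p below 0.05, the smallest adjusted p being that of Scgb3a2 (0.52, adjusted p = 0.115). Without deleted replicate 4 at 2 h Muc1 was called. A genotype-dependent time course was therefore not shown for any of the 8, the rise of Reg3g in deleted cells included (1.49 for 2 against 0 h, 95% interval -0.38 to 3.35).

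The 8 genes differed most in how far arrays of the same group lay apart. The within-group SD was 1.16 for Bpifa1, 0.95 for Reg3g, 0.60 for Scgb3a1 and 0.57 for Muc5b, which placed them 3rd, 8th, 26th and 31st of the 19938 genes, where the median gene had 0.15. Chad and Scgb3a2 each had 0.25, Muc1 had 0.17, and Scgb1a1 had 0.03, among the smallest of all genes. From the lowest to the highest of the 18 arrays Reg3g varied 19.9-fold and Bpifa1 15.1-fold, against 1.44-fold for Scgb1a1. The groups accounted for 98.2% of the variance of Scgb1a1 between arrays, 92.4% of that of Muc1 and 82.8% of that of Chad. They accounted for 37.9% of that of Scgb3a1 and 29.2% of that of Bpifa1.

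Some of the scattered genes were high and low on the same arrays. Control replicate 1 at 0 h, control replicate 2 at 2 h and control replicate 2 at 24 h were the lowest of their groups for both Bpifa1 and Reg3g. Over the deviations of the 18 arrays from their group means, Bpifa1 and Reg3g had r = 0.89 (permutation p = 0.000836) and rho = 0.83 (permutation p = 0.00163), and r = 0.84 without the 2 arrays farthest from the median. Scgb3a1 and Muc5b had r = 0.88 (permutation p = 0.000407) and rho = 0.84 (permutation p = 0.000965), with r = 0.93 without the 2 farthest. Scgb3a2 and Chad had r = 0.87 (permutation p = 0.00289) and rho = 0.80 (permutation p = 0.00739), with 0.82 without the 2 farthest. Each p is from all 46656 exchanges of arrays within groups, two-sided.

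Adjusted over all 28 pairs by the Benjamini-Hochberg method, the p-values of r and rho were 0.0117 and 0.0228 for Bpifa1 with Reg3g, 0.0114 and 0.0228 for Scgb3a1 with Muc5b, and 0.027 and 0.0459 for Scgb3a2 with Chad. A total of 6 pairs had both below 0.05. The share of other gene pairs that would pass was not counted, so the 6 cannot be called particular to these genes. The others were Scgb3a1 with Reg3g (r = 0.81), Scgb3a1 with Chad (r = 0.73) and Chad with Muc5b (r = 0.68). Bpifa1 with Scgb3a1 (r = 0.72), Bpifa1 with Muc5b (r = 0.62) and Reg3g with Muc5b (r = 0.70) were not among the 6. Bpifa1 with Muc5b had r = -0.17 on the arrays at 2 h. On the 6 arrays of each time alone, r for Bpifa1 with Reg3g was 0.98 at 0 h, 0.82 at 2 h and 0.89 at 24 h, that for Scgb3a1 with Muc5b was 0.99, 0.59 and 0.99, and that for Scgb3a2 with Chad was 0.79, 0.99 and 0.75. Scgb1a1 and Muc1 were in none of the 6 pairs: Scgb1a1 had r = -0.23 with Bpifa1 and 0.27 with Scgb3a2. Values on the same array share its RNA, its mixture of cells and its normalization, and the part of each was not tested.

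**Figure D3:**
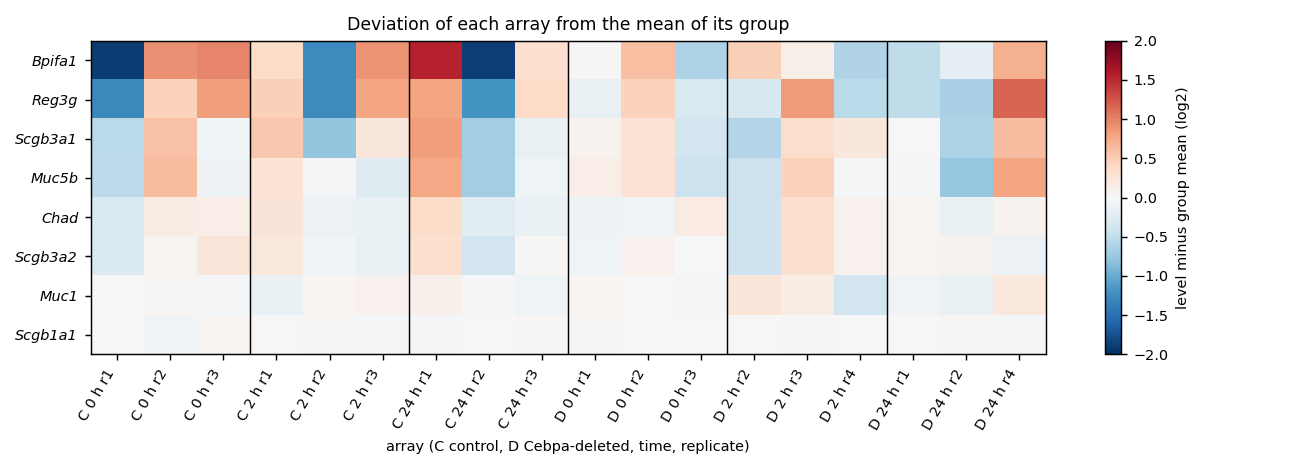
Deviation of each array (columns, C control and D deleted, with hour and replicate) from the mean of its group (log2), for the 8 genes in rows. Bpifa1, Reg3g, Scgb3a1 and Muc5b are blue together on control replicate 1 at 0 h and control replicate 2 at 24 h, while Scgb1a1 (within-group SD 0.03) is nearly white throughout.

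Over all genes, the nearest profiles were found after subtracting the mean of each time from the 18 arrays, which leaves the genotype difference in. For Bpifa1 they were Reg3g (r = 0.86), Bpifb1 (0.82) and Ltf (0.82), for Reg3g they were Bpifa1, Scgb3a1 (0.86) and Ltf (0.84), and for Scgb3a1 they were Ltf (0.89), Muc5b (0.88) and Reg3g. Ltf, the gene of the iron-binding protein lactoferrin, was among the nearest 3 of Muc5b as well (0.83). Bpifb1 is a relative of Bpifa1. Scgb3a2 was nearest to Ccdc33 (0.90), C2cd2 (0.88) and Traf3ip1 (0.88), and Chad to Cfap45 (0.86), Zfp335 (0.82) and Aqp4 (0.81).

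Muc1 had a different company, with Atp11a (r = 0.97), Slco4c1 (0.96) and Atp8a1 (0.95). Atp11a and Atp8a1 encode phospholipid flippases. Scgb1a1 was nearest to Kazn (0.93), Armh4 (0.88) and Nt5c1a (0.87), which read 6.48 to 7.32, 4.28 to 5.12 and 5.32 to 6.22. With a within-group SD of 0.03 for Scgb1a1, these matches rest on small deviations, and the part of array range in them was not tested. Each r describes 18 arrays and was picked as the highest among all other genes, so no p is given.

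Other genes of airway epithelium were counted in lists that leave out the 8. Between genotypes at 24 h, 50.7% of all genes were called, 24.3% higher and 26.4% lower. At 24 h, of 19 measured club cell genes 5 were higher in deleted cells and 3 lower, with a median of 0.05 that equalled the 0.05 of all genes. The higher ones were Gabrp (0.45), Upk3a (0.44), Aldh1a1 (0.37), Sec14l3 (0.30) and Cyp2f2 (0.24), the cytochrome P450 typical of mouse club cells. The lower ones were Cyp2b10 (-1.68), Pon1 (-1.25) and Dcxr (-0.22). These directions depended on the scaling: after quantile normalization 12 were higher and 2 lower with a median of 0.40, and with centred arrays 2 were higher and 4 lower with a median of -0.02. Dcxr was at 0.14 after quantile normalization.

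Where 50.7% of all genes were called at 24 h, 24.3% higher and 26.4% lower, the goblet and mucous list had a smaller share called and a larger share higher. Of 17 other goblet and mucous cell genes 7 were higher and 0 lower at 24 h, with a median of 0.33. They were Ltf (1.08), Agr2 (0.69), a disulfide isomerase needed to make mucins, Muc16 (0.67), Itln1 (0.54), and Foxa3 (0.36) and Spdef (0.35), transcription factors of goblet cells, together with Muc5ac (0.51), the gel-forming mucin of goblet cells, named here after its value was seen. By the same counts 7 were higher and 0 lower after quantile normalization (median 0.43) and with centred arrays (median 0.27). With the range covariate 0 was called, the median was 0.29, and 4 of all 19938 genes were called in that fit. The list mean per array ran from 6.82 to 7.22 in controls and from 7.25 to 7.49 in deleted cells.

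Paralogs of the 8 and airway transcription factors and Notch genes were counted too, some of them also in the goblet list. The shares of all genes at 24 h were again 24.3% higher and 26.4% lower. Of 33 paralogs 11 were higher and 4 lower, with a median of 0.29 that became 0.07 after quantile normalization. The higher ones included Muc16 and Bpifa5 (0.64), and the lower ones were Lbp (-1.01), Muc19 (-0.92), Bpifb5 (-0.55) and Reg4 (-0.53). Of 19 transcription factors and Notch genes 2 were higher, Foxa3 and Spdef, and 10 lower with a median of -0.29, which was 0.05 after quantile normalization. The lower ones included Elf5 (-0.76), Grhl2 (-0.68), Nkx2-1 (-0.65), the factor required for lung epithelial identity, and Elf3 (-0.64). With the range covariate 0 of either list was called, and Elf5 (0.17), Grhl2 (0.12) and Nkx2-1 (0.10) changed sign.

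**Figure D4:**
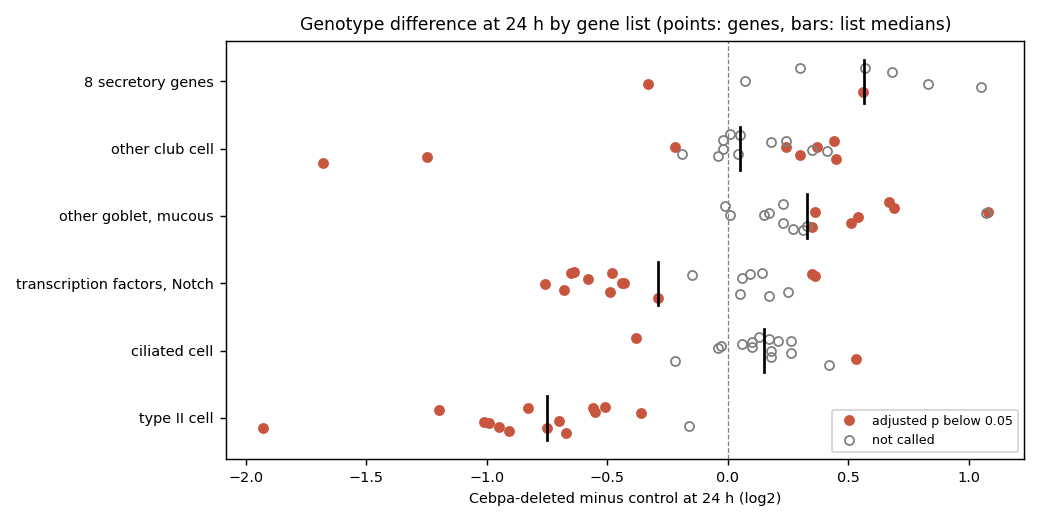
Difference between genotypes at 24 h (deleted minus control, log2) of each gene in 6 lists, filled where the adjusted p was below 0.05, with a bar at the median of each list. The goblet and mucous genes have their median at 0.33 and the other club cell genes at 0.05, while 14 of 15 type II markers are filled on the left with a median of -0.75.

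Markers of other cells differed between the genotypes as well, counted on the deposited scale. With the range covariate 0 of any of these lists was called. Among all genes 24.3% were called higher and 26.4% lower at 24 h on the deposited scale. At 24 h 14 of 15 type II cell markers were lower (median -0.75, list mean per array 12.19 to 12.29 in controls and 11.24 to 11.64 in deleted cells) and 9 of 10 type I cell markers were lower. Of 12 endothelial markers 11 were higher and 1, Esam, lower (median 0.72, 8.28 to 8.91 against 9.14 to 9.28), and 7 of 10 lymphocyte markers and 6 of 10 fibroblast and smooth muscle markers were higher. Ciliated cells share the airway lining with secretory cells, and of their 16 markers 1 was higher, Dnah5 (0.53), and 1 lower, Capsl (-0.38), with a median of 0.15 and list means of 8.08 to 8.18 against 8.10 to 8.50, or 6 higher and 0 lower after quantile normalization. Of 5 basal cell markers 2 were higher (Ngfr and Trp63), as were 4 of 13 macrophage markers (C1qa, C1qb, Fcgr1 and Siglecf), with 2 lower (Cd68 and Csf1r), 2 of 7 neutrophil markers (S100a8 and Ngp) and 1 of 3 neuroendocrine markers (Syp). No marker was at 0 on this scale, which has no detection call. The part of these cells in the difference of Scgb3a2 and Muc1 was not tested.

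At the earlier times 7 of 12 endothelial markers were higher in deleted cells at 0 h (median 0.93) and 11 of 12 at 2 h (median 1.01). Over the same samples 0 of the club, goblet, paralog, transcription factor and ciliated genes was called at 0 h, and at 2 h 1 was, Pon1 (-1.26, adjusted p = 0.00168), an antioxidant esterase that club cells make. Of 5 basal cell markers 1, Krt15, was lower at 0 h, and 0 was called at 2 h. Of all genes 0.858% were called at 0 h and 1.4% at 2 h. The counts of the club, goblet, paralog, transcription factor and ciliated lists lay near those shares.

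Over time the club cell genes and the goblet and mucous genes were counted in the same way. From 0 to 24 h 10 of 19 club cell genes were lower in controls and 0 higher (median -0.49), and in deleted cells 10 were lower and 2, Fmo2 and Upk3a, higher (median -0.37), where the medians of all genes were -0.06 and -0.05. After quantile normalization the club cell genes were 6 higher and 2 lower in controls (median -0.04) and 11 higher and 2 lower in deleted cells (median 0.39), so their direction depended on the scaling. Of the 17 goblet and mucous genes 3 were higher in controls, Itln1 (0.90), Muc5ac (0.69) and Dmbt1, and 0 lower (median 0.11), and in deleted cells 8 were higher and 0 lower (median 0.38). After quantile normalization these were 3 higher and 2 lower (median 0.22) and 7 higher and 2 lower (median 0.46), and with the range covariate 1 and 0 were called (medians -0.01 and 0.11). Of all genes 59.9% were called from 0 to 24 h in controls and 77.6% in deleted cells, so the shares of both lists that were called lay below those of all genes.

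Ciliated cell markers are given beside the time course of Chad. In controls 3 of 16 were higher from 0 to 2 h, Dnaic2, Rsph1 (0.52) and Tekt1 (0.28), and 2 lower, Tppp3 (-0.62) and Capsl (-0.32), with a median of 0.11, where 70.1% of all genes were called. From 2 to 24 h 0 was higher and 3 lower, Rsph1 (-0.52), Tppp3 (-0.42) and Tekt1 (-0.40), with a median of -0.35, where 12.4% of all genes were called. In deleted cells 2 were higher and 2 lower from 0 to 2 h (median 0.18), Dnaic2, Rsph1, Tppp3 and Capsl, where 63.1% of all genes were called. From 2 to 24 h, where 31.4% were called, they were 2 higher, Hydin (0.81) and Dnah5 (0.78), and 1 lower, Capsl (-0.54), with a median of -0.13 that was 0.10 after quantile normalization. The part of ciliated cells in the changes of Chad was not tested.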

How the data were processed

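Total RNA of isolated type II cells was hybridized to 18 arrays, 3 in each of 6 groups of genotype and time taken from the sample labels. The deposited values are log2 levels made with RMA, per the submitters' processing notes. Its version, the genome build and which arrays were normalized together are not given in the sources used here. The file has 35557 features, of which 21789 name a single gene. The 1621 that name several and the 12147 that name none were left out. A gene with several features (999 genes) took the feature of highest mean, and all 19938 genes were kept whatever their level.

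One limma 3.58.1 model in R 4.3.3, with a mean for each group, gave all contrasts (lmFit and eBayes, two-sided, Benjamini-Hochberg adjustment, called below 0.05). SEs and intervals are those of the moderated model. It was run on simulated data with independent noise and, apart from planted changes, the same mean in every group. Those data lacked the unequal array ranges seen here, so the run cannot tell how the model behaves under them. Named were the 8 members and Cebpa in every comparison, from each list up to 4 called genes of largest change and any gene counted among 5 or fewer, and for each member the 3 genes of nearest profile (predicted and small RNA genes passed over). The members and lists were chosen with earlier results of these data known. Other settings were leaving out single arrays, quantile normalizing again, centring arrays on their medians, adding each array's interquartile range as a covariate, fitting only the groups compared, blocking on replicate number, averaging the features of a gene, keeping the upper 60 percent of genes, eBayes with trend and robust settings, and requiring a change of at least 1.5-fold. Sequences came from RefSeq promoters of build GRCm38.p6. Correlations and plots were made with Python 3.11.15 and matplotlib 3.10.9.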

Additional observations from a re-analysis of the deposited data

Results flagged for a closer look

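The difference between genotypes was not the same at 24 h as at 0 h, by a limma test of the change in that difference, for Cebpa and for 10 genes of the club, goblet, paralog and transcription factor lists. For Cebpa the value (24 h minus 0 h) was -1.41 (adjusted p = 0.00747). Among club cell genes it was -1.60 for Cyp2b10 (adjusted p = 0.0467), -0.77 for Pon1 (adjusted p = 0.0401) and 0.64 for Upk3a (adjusted p = 0.04). For the goblet cell factor Spdef it was 0.43 (adjusted p = 0.0366) and for the transcription factor Gata6 -0.58 (adjusted p = 0.0443). Among paralogs it was 0.76 for Muc3 (adjusted p = 0.0226), 0.70 for Reg2 (adjusted p = 0.0353), 0.66 for Muc6 (adjusted p = 0.0319), 0.57 for Bpifa5 (adjusted p = 0.0244) and 0.44 for Muc15 (adjusted p = 0.0455). By list, 1 of 19 club cell genes was higher and 2 lower, and 1 of 17 goblet genes was higher. Of 33 paralogs 5 were higher, and of 19 transcription factors and Notch genes 1 was higher and 1 lower. In that comparison 14.3% of all genes were called, and none of the 8 secretory genes. The shares of these lists were therefore near or below that of all genes. All values are on the deposited scale, and other scalings are not given for these genes here.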

How the results depend on the processing

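Of 2808 values of the 8 genes under 27 other settings, 2627 kept their direction and their side of the threshold, 61 lost a call, 29 gained one, 7 were called values that turned, and 84 were uncalled values whose sign changed. At 24 h the 2 genes called between genotypes became 0 to 3 when single arrays were left out, 4 after a second quantile normalization, 0 with the range covariate and 0 at 1.5-fold. In controls the 3 called from 0 to 2 h became 0 with the covariate, the 4 from 0 to 24 h became 2 to 4 without single arrays, 1 with the covariate and 2 at 1.5-fold, and the 2 from 2 to 24 h became 1 to 2 without single arrays. In deleted cells the 6 called from 0 to 2 h became 1 with the covariate, the 3 from 0 to 24 h became 7 after quantile normalization, 0 with the covariate and 6 when only the groups compared were fitted, and the 2 from 2 to 24 h became 0 with the covariate. The genotype difference between 24 and 0 h, with 0 called, reached 0 to 1 without single arrays and 1 when only the groups compared were fitted, and that between 24 and 2 h 0 to 1 and, after quantile normalization, 1. Turned values were 0.28 for Muc1 between genotypes at 24 h with the covariate, 0.15 and 0.09 for Muc1 from 0 to 2 h in control and deleted cells with the covariate, and, after quantile normalization, 0.23 and 0.25 for Scgb1a1 in controls at 2 and 24 h and 0.22 and 0.39 in deleted cells. Cebpa from 0 to 2 h in controls was 0.09 after quantile normalization and 0.31 with the covariate. The range was nearly fixed by group, so the covariate fit can hardly separate range from group. The cause was not tested.

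With the replicate block the genes called from 2 to 24 h in controls became 1 (Chad) and those of the genotype difference between 24 and 2 h became 1 (Muc1, -0.64, adjusted p = 0.0194); the calls of Scgb3a2 from 2 to 24 h in controls (-0.60, adjusted p = 0.0747), of Scgb3a1 and Muc5b from 0 to 2 h in deleted cells (0.83, adjusted p = 0.12, and 0.81, adjusted p = 0.13) and of Cebpa at 2 h (-1.10, adjusted p = 0.164) were lost. Deviations of same-numbered control and deleted arrays correlated at -0.04, 0.00 and 0.04 at 0 h, -0.24 and -0.22 at 2 h, and 0.05 and 0.06 at 24 h. The labels give no link beyond the number, and these correlations cannot tell whether same-numbered samples were prepared together. Over all genes the count called at 0 h was 171, or 8 after quantile normalization and 25 with the replicate block. At 2 h it was 280, or 999 with the covariate, 1 with only the groups compared and 19 with the block. At 24 h it was 10110, or 6697 after quantile normalization, 4 with the covariate and 2579 at 1.5-fold.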
